A study of Mus musculus with 14 samples.

Results

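The genes described here are 10 mouse genes of cytosolic and endosomal nucleic acid sensing, chosen by symbol from the 54532 genes of the deposited count table. They are the RIG-I-like receptors Ddx58 (RIG-I), Ifih1 (MDA5) and Dhx58 (LGP2), the Toll-like receptors Tlr3 and Tlr7, the Z-form nucleic acid sensor Zbp1, the adaptors Mavs and Tmem173 (STING), the kinase Tbk1 and the DNA exonuclease Trex1. Expression was measured by bulk RNA sequencing of heart tissue from 14 wild-type (WT) male C57BL/6J mice, 8 weeks old when treated, with 1 mouse per library. The irradiated mice had been anesthetized and had received 30 Gy of 60Co gamma rays on the front of the chest, with the rest of the body shielded by lead, and the controls were not irradiated. Hearts were taken after 1 day from 3 controls (Control_1d) and 3 irradiated mice (IRR_1d), and after 6 weeks from 4 controls (Control_6w) and 4 irradiated mice (IRR_6w). The sources do not say whether the controls were anesthetized.

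These genes encode the detection step that precedes type I interferon. RIG-I and MDA5 are helicases that bind viral or misplaced double-stranded RNA in the cytosol and signal through MAVS on mitochondria, and LGP2 is the third member of that family, which lacks the signalling domains and modulates the other two. TLR3 and TLR7 read double-stranded and single-stranded RNA inside endosomes. ZBP1 binds left-handed nucleic acid and can start necroptosis. STING carries the signal of cytosolic DNA detected by cGAS, and TBK1 phosphorylates the interferon regulatory factors downstream of MAVS, STING and TLR3. TREX1 degrades cytosolic DNA. Several of the sensors are themselves induced by interferon, while MAVS and TBK1 are expressed in most cell types. Heart tissue holds cardiomyocytes, endothelium, fibroblasts and macrophages, and TLR7 is known from macrophages and plasmacytoid dendritic cells.

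The promoters of members that were higher or not higher after irradiation are shown for 4 genes, because sensors induced by interferon are known to carry binding letters for interferon regulatory factors (IRF). The sequences come from RefSeq (GRCm38.p6), read 5′ to 3′ on the strand of the gene before its start site, and capitals mark the only matches found. Entries were matched by symbol and searched for 6 of the 10 members. Any entry of Tmem173 was left out, so its promoter was not searched. The Ddx58 sequence covers chr4:40239829-40240075 (minus strand) and stops at base -4 from the start, as the last bases are exonic in GENCODE, that of Ifih1 chr2:62646256-62646505 (minus strand) and that of Mavs chr2:131233813-131234062 (plus strand). Of Tlr3, 30 bases around the match are given, at chr8:45410421-45410450 (minus strand), since RefSeq starts this gene inside the first exons of the GENCODE model.
Ddx58: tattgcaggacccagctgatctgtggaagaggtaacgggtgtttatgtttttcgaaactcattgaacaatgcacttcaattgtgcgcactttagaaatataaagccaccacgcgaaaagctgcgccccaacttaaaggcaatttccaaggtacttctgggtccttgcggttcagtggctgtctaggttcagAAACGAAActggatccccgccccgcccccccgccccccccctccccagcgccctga
Ifih1: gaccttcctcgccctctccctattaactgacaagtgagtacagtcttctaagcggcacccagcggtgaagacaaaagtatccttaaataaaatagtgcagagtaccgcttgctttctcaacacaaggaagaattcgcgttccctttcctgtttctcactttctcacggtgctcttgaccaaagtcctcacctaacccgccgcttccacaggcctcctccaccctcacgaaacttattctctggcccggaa
Mavs: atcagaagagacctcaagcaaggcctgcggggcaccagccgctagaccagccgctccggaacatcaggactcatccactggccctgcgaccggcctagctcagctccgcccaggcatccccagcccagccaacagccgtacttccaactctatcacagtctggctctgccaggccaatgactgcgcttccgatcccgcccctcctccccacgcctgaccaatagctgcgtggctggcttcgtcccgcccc
Tlr3: aagtgaatggcTTTCACTTtgtttagacac
Windows of 250 bases before the start were searched on both strands in these 6 members. The letters GAAANNGAAA of an interferon-stimulated response element were found in none of them, against 2.98% of 32851 promoters. The letters TTCNNNGAA of a STAT site were also found in none, against 7.02%. The shorter IRF core AANNGAAA, which every GAAANNGAAA contains and which was searched after the other motifs had given no match, was present in Ddx58 and Tlr3, in both at bases -59 to -52 from the start, and in 21.3% of all promoters. The match in Tlr3 lies on the opposite strand. A match describes letters in this window and is not a measured binding site.

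The libraries held 13336746 to 16837265 counts. Markers of cardiomyocytes were present in all 14 libraries, at a summed 3997 to 36352 CPM (the count as a share of a common library size, scaled with TMM). Several libraries stood apart. Control_6w replicate 3 had 4322 CPM of thymus and T cell markers, against at most 58.3 in the other libraries, IRR_6w replicate 1 had 420 CPM of lung and 2876 CPM of atrial markers, and IRR_1d replicate 3 had 1979 CPM of atrial markers. Of 1835 genes in an expression band of 2 to 5 CPM, many were listed at 0 counts in some libraries. The share was 29.6% in Control_1d replicate 1, 20.4% in IRR_6w replicate 3 and 8.01% in IRR_6w replicate 4, against at most 1.58% elsewhere. Several fold changes of the members are therefore also given without these libraries.

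Levels were compared between genes per length, as FPKM, the CPM divided by the deposited gene length in kilobases. Mavs had the highest level of the 9 members with counts in every group, at 22.2 ± 6.40 FPKM (SD, n = 4) in Control_6w and 17.3 ± 2.46 FPKM (SD, n = 4) in IRR_6w. In Control_6w the order then ran from Tbk1 at 7.20 ± 1.99 FPKM through Ddx58 at 4.48 ± 0.857, Tmem173 at 4.01 ± 1.02, Tlr3 at 3.63 ± 0.831, Ifih1 at 3.20 ± 0.992, Tlr7 at 2.07 ± 0.929 and Zbp1 at 1.14 ± 1.57 to Dhx58 at 0.901 ± 0.302 FPKM (SD, n = 4). Between Tbk1 and Ddx58 the libraries did not overlap, whereas from Ddx58 down each gene overlapped its neighbour in this order. In IRR_6w the order behind Mavs was Ddx58 at 11.6 ± 3.73 FPKM, Tlr3 at 8.89 ± 4.01, Ifih1 at 8.18 ± 3.27, Tbk1 at 8.10 ± 1.57, Tmem173 at 6.05 ± 1.74, Tlr7 at 5.77 ± 2.33, Zbp1 at 5.37 ± 1.91 and Dhx58 at 5.07 ± 2.48 FPKM (SD, n = 4). All neighbours overlapped there. The deposited length of Tmem173 is 2302 bases, whereas its exons in GENCODE add up to 2741 bases, with which its level would be 3.37 FPKM in Control_6w, below Tlr3, and 5.08 FPKM in IRR_6w. For Zbp1 the mean in Control_6w rests on replicate 3 (3.43 FPKM), the others being 0, 0.260 and 0.858 FPKM. In Control_1d the order behind Mavs at 17.1 FPKM was Tbk1 (7.06), Tmem173 (5.16), Tlr3 (4.74), Ddx58 (4.61), Ifih1 (4.12), Tlr7 (2.38), Dhx58 (1.35) and Zbp1 (1.12). In IRR_1d it was Ddx58 (8.48), Tlr3 (6.08), Tbk1 (5.98), Ifih1 (5.93), Zbp1 (5.44), Dhx58 (3.35), Tmem173 (2.74) and Tlr7 (1.61) behind Mavs at 18.3 FPKM. At 1 day Mavs lay above every other member with counts without overlap, and the only other neighbours without overlap were Tmem173 and Tlr7 in IRR_1d.

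A differentially expressed gene (DEG) had to differ more than 2-fold in either direction in edgeR, with a p adjusted by the method of Benjamini and Hochberg over the 16034 genes tested of less than 0.05. Of the 10 members, 9 passed the filter on low counts. None of them was a DEG in any of the 4 comparisons, where the share of all genes called was 0.0249% at 1 day, 0.274% at 6 weeks, 0.274% for the mean of both irradiation effects and 0% for the change in the effect between the time points. DESeq2, with the same limits, called 5 members at 6 weeks (2.06% of all genes) and 2 for the mean of both effects (1.15%), and limma-voom called none.

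At 6 weeks Ddx58, Ifih1, Dhx58, Tlr3, Tlr7 and Zbp1 had fitted fold changes of 2.45 to 5.61 over the controls, and none of these differences passed the adjusted threshold in edgeR (adjusted p 0.0840 to 0.556). Of the 9 members, 8 had a positive log2 fold change and 1 a negative one, and the median was 1.35 against -0.09 over all genes tested. An unadjusted p under 0.05 in edgeR was reached by 6 members, all higher (Ddx58, Ifih1, Dhx58, Tlr3, Tlr7 and Zbp1), where the background was 5.44% of all genes. In 5 members the groups did not overlap, all higher in IRR_6w, against 4.08% of all genes.

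Among the RIG-I-like receptors, Dhx58 (ENSMUSG00000017830; chr11:100694884-100704271) showed the smallest p. It was measured at 3.27, 2.67, 4.10 and 1.75 CPM in Control_6w and at 7.70, 15.5, 27.4 and 15.7 CPM in IRR_6w. Every irradiated heart was above every control, and IRR_6w replicate 1 was the lowest of the irradiated hearts. The difference was 5.61-fold (log2 fold change 2.49, SE 0.557, edgeR adjusted p 0.0840). It passed the threshold without IRR_6w replicate 1 (2.73, adjusted p 0.0455) and in DESeq2 (adjusted p 0.00123), and over all alternatives the adjusted p ran from 0.00123 to 0.422. A share of 4.31% of its exonic bases is also covered by Dhx58os on the opposite strand, and strandedness of the libraries was not given in the sources used here.

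Ddx58 (ENSMUSG00000040296; chr4:40203773-40239828) was measured at 30.0, 23.7, 35.8 and 36.8 CPM in Control_6w and at 47.0, 78.7, 92.8 and 109 CPM in IRR_6w. The groups did not overlap, with IRR_6w replicate 1 nearest to the controls. The fold change was 2.59 (log2 1.37, SE 0.356, edgeR adjusted p 0.132; range over the alternatives 0.0135 to 0.679). Ifih1 (ENSMUSG00000026896; chr2:62595798-62646255) was measured at 37.9, 21.3, 20.4 and 25.0 CPM in Control_6w and at 39.2, 59.6, 65.0 and 103 CPM in IRR_6w. Its lowest irradiated value, again replicate 1, lay just above the highest control. The fold change was 2.55 (log2 1.35, SE 0.357, edgeR adjusted p 0.145; range 0.0208 to 0.707). The 3 libraries set apart by thymus, lung or atrial markers (Control_6w replicate 3, IRR_6w replicate 1 and IRR_1d replicate 3) are called those with other tissue. For IRR_1d replicate 3 this refers to atrial markers only, and the atrium is part of the heart. Without these 3 libraries, all 3 RIG-I-like receptors passed the DEG limits, against 1.27% of all genes tested in that fit. The log2 fold changes were 1.63 for Ddx58, 1.44 for Ifih1 and 2.93 for Dhx58. Ifih1 passed narrowly there (edgeR adjusted p 0.0498). Without the 3 libraries that listed many low genes at 0 counts, which leaves 2 irradiated hearts at 6 weeks, the values were 1.00, 0.92 and 1.98 and none passed.

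Of the endosomal receptors, Tlr7 (ENSMUSG00000044583; chrX:167304929-167330558) was measured at 11.3, 5.35, 5.01 and 12.1 CPM in Control_6w and at 15.5, 17.7, 24.2 and 36.7 CPM in IRR_6w. The groups did not overlap. The highest values came from replicates 3 and 4, the libraries with many low genes at 0 counts. The fold change was 2.79 (log2 1.48, SE 0.405, edgeR adjusted p 0.159; range 0.0258 to 0.711), and the log2 fold change was 0.98 (adjusted p 0.711) without those libraries and Control_1d replicate 1. Tlr3 (ENSMUSG00000031639; chr8:45395665-45411080) was measured at 23.2, 18.6, 13.03 and 20.7 CPM in Control_6w and at 22.2, 35.4, 62.7 and 64.8 CPM in IRR_6w. Here the lowest irradiated heart, replicate 1, fell below the highest control, and the highest values came again from replicates 3 and 4. The fold change was 2.45 (log2 1.29, SE 0.370, edgeR adjusted p 0.193; range 0.0421 to 0.783), and the log2 fold change was 0.61 without those libraries and Control_1d replicate 1. Tlr3 shares 7.32% of its exonic bases with Gm45542 on the opposite strand.

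Zbp1 (ENSMUSG00000027514; chr2:173206612-173218923) was measured at 0, 0.917, 12.1 and 3.03 CPM in Control_6w and at 14.8, 28.4, 19.2 and 13.4 CPM in IRR_6w. The controls were widely spread, from 0 counts in replicate 1 to 213 counts in replicate 3, the library with thymus transcripts, and none reached the lowest irradiated value of 13.4 CPM. By counting alone, 0 counts allow up to 3 at 95% confidence. The fold change was 4.68 (log2 2.23, SE 1.03, edgeR adjusted p 0.556; range 0.0793 to 0.784). It was 3.83 on the log2 scale without Control_6w replicate 3. Its SE was the largest of the 9 members at 6 weeks.

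The genes downstream of the sensors had log2 fold changes of -0.36 to 0.59. Tmem173 (ENSMUSG00000024349) was measured at 6.54, 9.32, 8.82 and 12.2 CPM in Control_6w and at 17.3, 17.4, 9.72 and 11.3 CPM in IRR_6w, with 2 irradiated hearts inside the control range. The log2 fold change was 0.59 (SE 0.327, edgeR adjusted p 0.647), and 0.91 (adjusted p 0.536) without the libraries with many low genes at 0 counts. Tbk1 (ENSMUSG00000020115; chr10:121546455-121586787) was measured at 25.5, 22.5, 39.7 and 25.0 CPM in Control_6w and at 26.4, 27.5, 39.8 and 33.2 CPM in IRR_6w, and the control value of 39.7 CPM came from the library with thymus transcripts. Its log2 fold change was 0.17 (SE 0.228, edgeR adjusted p 0.878), but 0.38 (adjusted p 0.515) without that library and 0.46 (adjusted p 0.515) without all 3 libraries with other tissue, and -0.06 without the libraries with many low genes at 0 counts. Mavs (ENSMUSG00000037523; chr2:131234063-131248025) was measured at 74.6, 88.0, 43.9 and 90.5 CPM in Control_6w and at 65.2, 64.6, 49.6 and 52.0 CPM in IRR_6w, so that 3 of the 4 controls lay above every irradiated heart (log2 fold change -0.36, SE 0.264, edgeR adjusted p 0.757). The lowest control was again the library with thymus transcripts. Without it the log2 fold change of Mavs was -0.54 (unadjusted edgeR p 0.0333, adjusted p 0.390), without all 3 libraries with other tissue -0.61 (unadjusted p 0.0337, adjusted p 0.408), and without the libraries with many low genes at 0 counts -0.19. These values do not show that the downstream genes were unaffected.

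Trex1 (ENSMUSG00000049734; chr9:109057933-109059734) was listed at 0 counts in all 14 libraries. All of its exonic bases (100%) are also covered by Atrip on the same strand, which had 104 to 258 counts per library. The mode by which reads in overlapping genes were counted was not given in the sources used here, so no level of Trex1 can be read from the table.

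**Figure D1:**
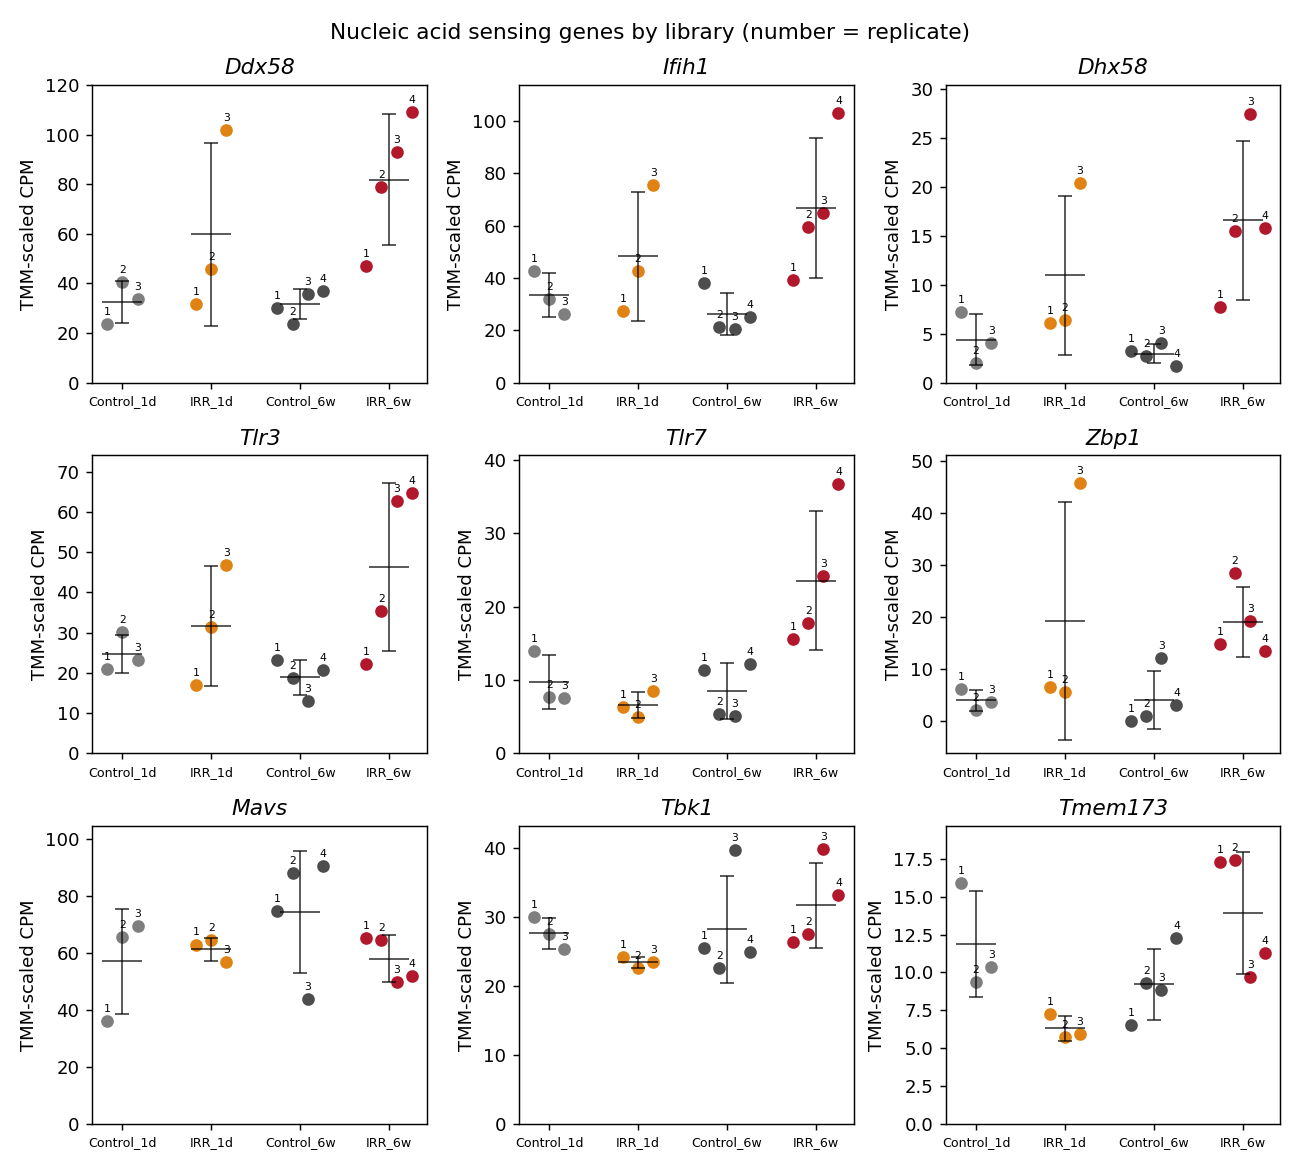
CPM scaled with TMM (y axis, linear) of the 9 members with counts in each of the 14 libraries, by group (x axis), with points numbered by replicate and lines for the mean and SD (for Zbp1 the SD bars pass below 0). In Dhx58 every IRR_6w point lies at or above 7.70 CPM and every Control_6w point at or below 4.10 CPM, whereas Mavs and Tbk1 overlap.

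At 1 day the members gave no common direction, and most of the higher values came from 1 heart. Of the 9 members, 6 had a positive log2 fold change and the median was 0.36 against 0.06 over all genes. An unadjusted p under 0.05 in edgeR was reached by Ddx58, higher, where the background was 1.95% of all genes, and by Tmem173, lower, where it was 0.942%. The adjusted p was 1 for all 9 members. In no member did all IRR_1d hearts lie above the controls (6.52% of all genes), and in 2 all lay below (4.14%).

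Ddx58 was measured at 23.5, 40.5 and 33.6 CPM in Control_1d and at 31.7, 45.9 and 102 CPM in IRR_1d (log2 fold change 0.88, SE 0.407, unadjusted edgeR p 0.0481). Only IRR_1d replicate 3 was far above the controls. Dhx58 was measured at 7.20, 2.01 and 4.0 CPM in Control_1d and at 6.11, 6.43 and 20.3 CPM in IRR_1d (1.31, SE 0.620), and Ifih1 at 42.7, 32.1 and 26.1 CPM against 27.2, 42.5 and 75.4 CPM (0.52, SE 0.406). The same heart was the highest in both. Zbp1 was measured at 6.07, 2.11 and 3.69 CPM in Control_1d and at 6.43, 5.48 and 45.7 CPM in IRR_1d (2.27, SE 1.19), and Tlr3 at 20.8, 30.1 and 23.1 CPM against 16.9, 31.5 and 46.7 CPM (0.36, SE 0.422). In these 5 genes IRR_1d replicate 3, the library with atrial markers, was the highest of its group. It also had the highest fibroblast marker sum of the 14 libraries (3556 CPM, against 1795 and 2042 CPM in the rest of its group) and the lowest cardiomyocyte sum of its group (13721 CPM). Without it the log2 fold changes were 0.26 for Ddx58, 0.51 for Dhx58, 0.06 for Ifih1, 0.59 for Zbp1 and -0.03 for Tlr3. Over the whole comparison, all 6 fibroblast markers had a positive log2 fold change at 1 day (median 0.86), 1 with an unadjusted p under 0.05. The part of atrial tissue or of fibroblasts in these values was not tested.

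Tmem173 was measured at 15.9, 9.35 and 10.4 CPM in Control_1d and at 7.27, 5.74 and 5.94 CPM in IRR_1d, without overlap (log2 fold change -0.91, SE 0.380, unadjusted edgeR p 0.0306). Without Control_1d replicate 1, the highest control, the log2 fold change was -0.64. The 6 endothelial markers also summed to values that did not overlap, at 1308 to 1498 CPM in IRR_1d and 1617 to 2239 CPM in Control_1d, although none had an unadjusted p under 0.05, and their part in the value of Tmem173 was not tested. The groups did not overlap for Tbk1 either, at 24.1, 22.5 and 23.5 CPM against 29.9, 27.5 and 25.4 CPM (-0.24, SE 0.264), a difference smaller than its error. Tlr7 was measured at 13.96, 7.64 and 7.54 CPM in Control_1d and at 6.31, 4.88 and 8.51 CPM in IRR_1d (-0.56, SE 0.462), with overlapping groups, and its log2 fold change was -0.20 without Control_1d replicate 1. That library also had 255 CPM of B cell and 42.1 CPM of neutrophil markers, against at most 28.9 and 7.34 CPM in the other controls of that day. It was the highest of these 3 controls for Tlr7, Tmem173, Dhx58, Zbp1, Ifih1 and Tbk1, and the lowest for Mavs, Ddx58 and Tlr3. The part of these cells was not tested. Mavs was measured at 35.9, 65.6 and 69.5 CPM in Control_1d and at 62.9, 64.4 and 56.7 CPM in IRR_1d (0.11, SE 0.305). Its sign turned (-0.14) without Control_1d replicate 1, the lowest value and a library with many low genes at 0 counts.

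**Figure D2:**
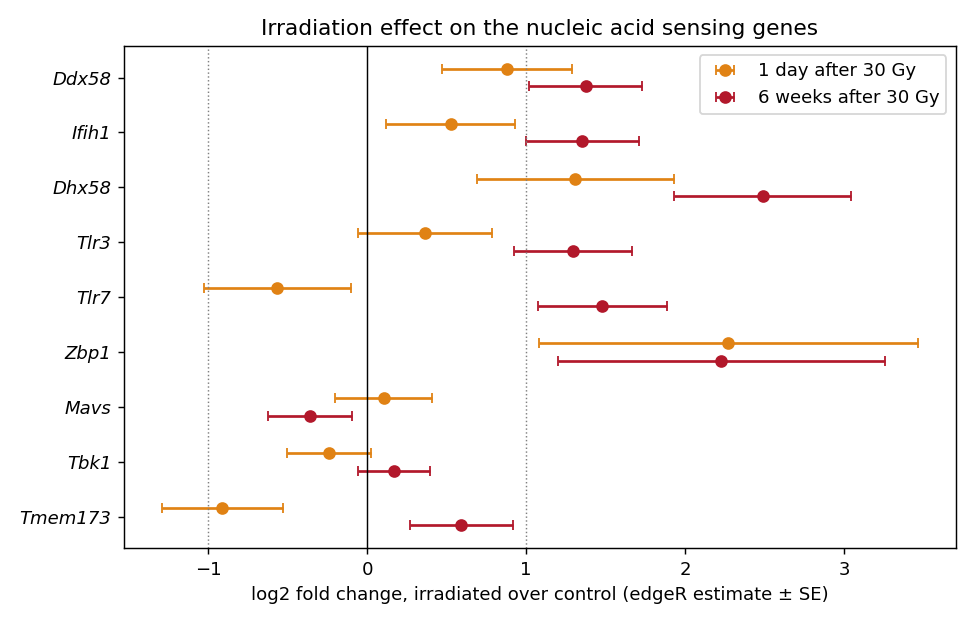
edgeR log2 fold change of irradiated over control hearts (x axis, bars are SE) for the 9 tested members (y axis) at 1 day (3 against 3 mice) and at 6 weeks (4 against 4), with dotted lines at the fold limits of 2 and 0.5. At 6 weeks Ddx58, Ifih1, Dhx58, Tlr3, Tlr7 and Zbp1 lie above a log2 fold change of 1, and none of the points passed the adjusted threshold.

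The change in the irradiation effect from 1 day to 6 weeks was tested directly. Tlr7 and Tmem173 had the smallest p, with negative log2 fold changes at 1 day and positive ones at 6 weeks, of which only that of Tlr7 at 6 weeks and that of Tmem173 at 1 day had an unadjusted p under 0.05. The difference between the effects was 2.04 on the log2 scale for Tlr7 (SE 0.615, unadjusted edgeR p 0.00476, adjusted p 0.991) and 1.5 for Tmem173 (SE 0.501, unadjusted edgeR p 0.00918, adjusted p 0.991). For Tlr7 it was 1.19 (unadjusted p 0.0810) without the libraries with many low genes at 0 counts, and for Tmem173 1.56. These 2 of the 9 members had an unadjusted p under 0.05, both higher, against 2.14% of all genes. For Ddx58 the difference was 0.50 (SE 0.535), for Ifih1 0.83 (SE 0.537) and for Dhx58 1.18 (SE 0.811), and none of the 3 had an unadjusted p under 0.05. These differences depended on IRR_1d replicate 3. Without it they were 1.11 for Ddx58 (unadjusted edgeR p 0.0341), 1.30 for Ifih1 (0.0273) and 1.98 for Dhx58 (0.0306), without all 3 libraries with other tissue 1.37, 1.38 and 2.42, and without the libraries with many low genes at 0 counts 0.31, 0.19 and 0.12. The adjusted p passed the threshold in none of the alternatives run. For Zbp1 the difference was -0.04 (SE 1.51), but 1.64 without IRR_1d replicate 3 and 1.56 without Control_6w replicate 3. Without all 3 libraries with other tissue it was 3.35 (unadjusted edgeR p 0.0287, adjusted p 0.653). It was -0.31 without the libraries with many low genes at 0 counts.

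For the mean of both irradiation effects, 5 members had an unadjusted p under 0.05 in edgeR, all higher, against 5.26% of all genes. The smallest edgeR p belonged to Dhx58 (log2 1.90, SE 0.418, adjusted p 0.0943) and Ddx58 (1.13, SE 0.271, adjusted p 0.131), which were also the 2 members called by DESeq2. Ifih1 stood at 0.94 (SE 0.270, adjusted p 0.266), Tlr3 at 0.83 (SE 0.280, adjusted p 0.394) and Zbp1 at 2.25 (SE 0.789, adjusted p 0.425). For Zbp1 the mean effect was 1.41 without IRR_1d replicate 3, where its unadjusted edgeR p was 0.0849, and 3.05 without Control_6w replicate 3. The mean effects of Tlr7, Tmem173, Mavs and Tbk1 lay between -0.16 and 0.46.

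How far the members varied together was read from the 14 libraries. Of the 36 pairs of members, Ifih1 and Tlr3 had the highest Pearson correlation on log2 CPM (r = 0.904, Spearman rho = 0.864, adjusted p 7.2e-04 by permutation over the pairs). Without the 2 libraries farthest from the median r was 0.835, and within the groups, after removal of the group means, it was 0.811. Ddx58 was close to Tlr3 (r = 0.873, within groups 0.793) and to Ifih1 (r = 0.846, within groups 0.668), while Ddx58 and Dhx58 (r = 0.796) fell to 0.443 within groups. Of the 15 pairs among Ddx58, Ifih1, Dhx58, Tlr3, Tlr7 and Zbp1, 10 had an adjusted permutation p under 0.05. They include Ifih1 and Tlr7 (r = 0.736, within groups 0.747), Dhx58 and Zbp1 (r = 0.730, within groups 0.383), whose rho of 0.886 was the highest of all pairs, Ddx58 and Zbp1 (r = 0.680, within groups 0.364) and Tlr3 and Tlr7 (r = 0.668, within groups 0.543, but 0.281 without the 2 libraries farthest from the median). The other 5 pairs did not pass, with r = 0.597 for Ddx58 and Tlr7 (adjusted p 0.0761), 0.567 for Dhx58 and Tlr7 (0.0987), 0.493 for Ifih1 and Zbp1 (0.161), 0.412 for Zbp1 and Tlr3 (0.269) and 0.293 for Zbp1 and Tlr7 (0.470), by the same permutation test. Within groups these 5 pairs ran from -0.138 to 0.356. Libraries share depth and composition as well as treatment. Mavs and Tbk1 were inversely related (r = -0.675, rho = -0.547, permutation p 0.00860, adjusted 0.0289, and -0.827 within groups), but r was -0.164 when CPM was scaled by library totals alone.

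**Figure D3:**
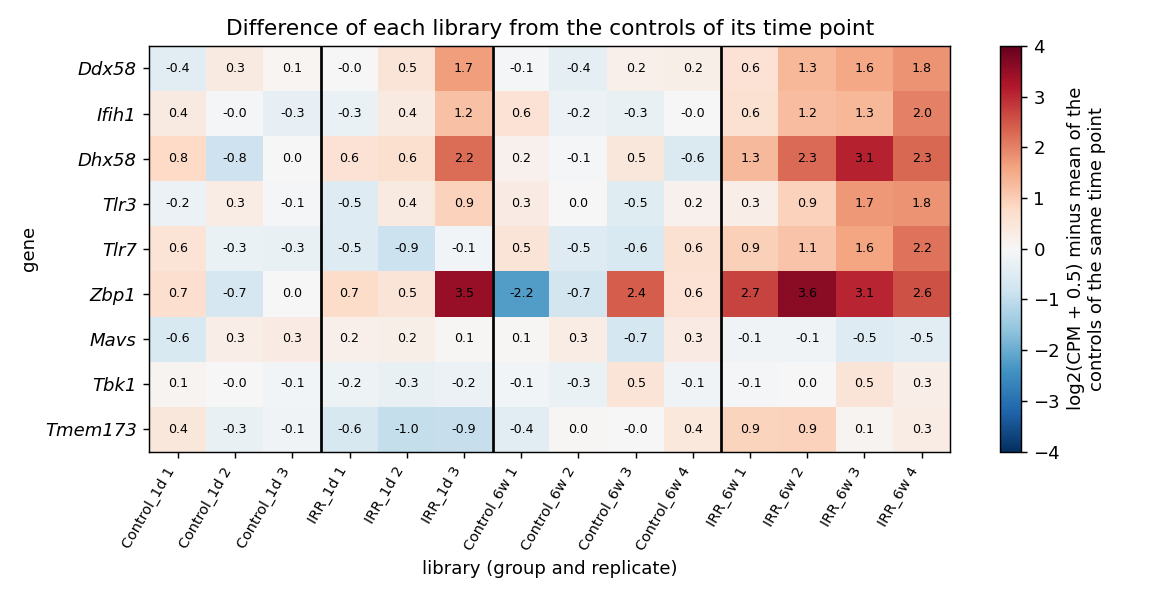
Difference of each library (x axis) from the mean of the controls of the same time point, on the scale of log2(CPM + 0.5), for the 9 members (y axis), with the value in each cell and black lines between the groups. IRR_1d replicate 3 is higher in Ddx58, Ifih1, Dhx58, Tlr3 and Zbp1 than the other IRR_1d libraries, and Mavs and Tbk1 differ by at most 0.53 in IRR_6w.

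The genes whose pattern was most like a RIG-I-like receptor were found by Pearson r over the 14 libraries among 16025 tested genes. For Ddx58 they were Eif2ak2 (r = 0.956), Ifit1 (0.938), Ifi204 (0.936), Phf11a (0.934) and Gbp3 (0.922). For Ifih1 they were Cd109 (0.940), Parp12 (0.938), Parp9 (0.931), Trim30d (0.930) and Phf11d (0.928). For Dhx58 they were Ifit3 (0.944), Itga2 (0.932), Ifit3b (0.925), Slfn8 (0.918) and Uba7 (0.918), of which Ifit3 and Ifit3b are near-identical copies whose reads may be split. The 3 lists shared no gene. Eif2ak2 encodes PKR, a kinase activated by double-stranded RNA, and Ifit1 and Ifit3 encode antiviral proteins induced by interferon.

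The summed macrophage and monocyte markers were higher in every irradiated heart than in every control at 6 weeks. The 12 markers summed to 1220 to 1600 CPM in IRR_6w and 296 to 731 CPM in Control_6w, the lowest being Control_6w replicate 3. Of these markers 10 were higher and 1, Cd163, was lower at an unadjusted p under 0.05 (median log2 fold change 1.30). The chemokine receptor gene Ccr2 was the only up regulated DEG (log2 3.49, edgeR adjusted p 0.0214). No marker of the other cell types was an up regulated DEG at 6 weeks. Of 6 fibroblast markers 3 were higher at an unadjusted p under 0.05 (median 0.92). Of 6 endothelial markers 1 was higher and 1 lower at that level (median -0.10), and of 6 brown fat markers 1 was higher (median 0.35). No cardiomyocyte marker reached that level, although all 6 had a negative log2 fold change (median -0.74), nor did any of the 6 atrial (median 2.36), 6 B cell (0.98) and 4 tested neutrophil markers (1.13), all with a positive log2 fold change, and IRR_6w replicate 1 had the highest sum of each of these 3 lists. For the thymus and T cell list, 7 of 8 tested markers were lower at an unadjusted p under 0.05, with the controls including Control_6w replicate 3. At 1 day the macrophage and monocyte sums were 732 to 860 CPM in IRR_1d and 662 to 915 CPM in Control_1d. Per 100 CPM of these markers, Ddx58 was at 3.85 to 6.81 CPM in IRR_6w and 3.29 to 12.1 CPM in Control_6w, Ifih1 at 3.22 to 6.45 and 2.96 to 6.89 CPM, Dhx58 at 0.631 to 1.93 and 0.239 to 1.39 CPM, and Tlr7 at 1.15 to 2.29 and 0.742 to 1.69 CPM, so that the groups overlapped in each. For Dhx58 the overlap came from Control_6w replicate 3 alone, the library with the lowest marker sum, and the other controls were at 0.239 to 0.460 CPM. For Zbp1 likewise the other controls were at 0 to 0.414 CPM, against 0.839 to 1.84 CPM in IRR_6w. Mavs was lower per 100 CPM of the markers without overlap, at 3.25 to 5.35 CPM in IRR_6w and 10.5 to 14.9 CPM in Control_6w, and so was Tbk1, at 1.78 to 2.80 and 3.13 to 13.4 CPM. In bulk tissue, more cells of a type and more RNA per cell cannot be told apart, and the part of macrophages or of these other cells in the members' values was not tested. The 7 markers listed for plasmacytoid dendritic cells summed to 262 to 905 CPM in IRR_6w and 451 to 1214 CPM in Control_6w, most of it from Tcf4 and Cox6a2, which endothelium and muscle also express. Of the 6 tested, 2 had a positive log2 fold change at 6 weeks, and 1 was lower at an unadjusted p under 0.05 (median log2 fold change -1.61). Ccr9, Ly6d, Klk1 and Siglech had their highest level in Control_6w replicate 3, the library with thymus markers, with 274 CPM of Ccr9 there against a Control_6w mean of 70.1 CPM. Siglech, a defining marker of plasmacytoid dendritic cells, was at 0 counts in 7 of the 14 libraries and at most 5.18 CPM.

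Other genes of the pathway were followed in 6 lists with 99 genes, of which 82 could be tested. At 6 weeks 4 of the 82 were DEGs, all up regulated (0.274% of all genes tested were DEGs), 18 had an unadjusted p under 0.05 and were higher (5.44% of all genes), none was lower at that level, and the median log2 fold change was 0.19. Without the libraries with many low genes at 0 counts, which leaves 2 irradiated hearts at 6 weeks, no gene of the whole table was a DEG in edgeR, so these 4 calls were lost. The 18 genes held 5 of the 10 other sensors and 5 of the 11 genes of Toll-like receptor trafficking, and 1 of the 18 adaptors, kinases and factors. At 1 day none was a DEG, 2 were higher (1.95% of all genes) and 1 lower (0.942%) at an unadjusted p under 0.05, shares near the background, and the median was 0.15.

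Of the 10 tested genes of the list of other sensors, 1 was a DEG at 6 weeks and 5 were higher at an unadjusted p under 0.05 (median log2 fold change 1.55). The other 5 did not reach that level, with positive log2 fold changes from 0.22 for Ddx41 to 1.5 for Nlrp1b, and 43.8% of all genes tested had a positive one. Eif2ak2 rose from 19.4 ± 2.73 to 59.3 ± 14.9 CPM (SD, n = 4; log2 1.61, SE 0.307, edgeR adjusted p 0.0434), and Ddx60, an interferon-inducible helicase, stood at 6.89 ± 2.46 and 40.1 ± 27.4 CPM (2.54, SE 0.518, adjusted p 0.0566). Mb21d1, which encodes the DNA sensor cGAS, was at 2.93 ± 1.15 and 4.20 ± 3.24 CPM (0.52, SE 0.963), with 141 counts in IRR_6w replicate 3 and 31 to 57 counts in the other irradiated hearts. Among 18 adaptors, kinases and factors, Irf7, the interferon-inducible factor that TBK1 activates, rose from 10.8 ± 2.57 to 156 ± 77.3 CPM (SD, n = 4; 3.85, SE 0.571, edgeR adjusted p 0.0162), and it was the only one of the list with an unadjusted p under 0.05 (median -0.06). Ripk3, the partner of ZBP1 in necroptosis, had a log2 fold change of 0.94 (adjusted p 0.659).

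Among 11 genes of Toll-like receptor trafficking and processing, 5 were higher at an unadjusted p under 0.05. Ctss, a cathepsin that cleaves endosomal receptors, rose from 29.6 ± 3.43 to 93.8 ± 20.5 CPM (SD, n = 4; log2 1.66, SE 0.257, edgeR adjusted p 0.0162). Unc93b1, the chaperone that brings TLR3 and TLR7 to endosomes, had a log2 fold change of 1.33 (adjusted p 0.120). Of 17 tested genes of nucleic acid degradation and editing, 4 were higher at that level, and Pld4, an exonuclease of endosomes and a gene of myeloid cells, rose from 12.8 ± 3.55 to 39.4 ± 4.0 CPM (SD, n = 4; 1.63, SE 0.308, edgeR adjusted p 0.0434). Samhd1, which depletes nucleotides and restricts viruses, stood at 0.92 (adjusted p 0.168). Of 20 regulators of RIG-I-like receptors and STING, none was a DEG, and Nlrc5 (1.75, adjusted p 0.147) and Usp18 (2.46, adjusted p 0.148), which dampens interferon signalling, had the smallest p.

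At 1 day the smallest p of these lists belonged to Tmem120a, of the regulator list (log2 1.53, unadjusted edgeR p 0.0142), Irf7 (1.58, unadjusted p 0.0197) and the RNA exonuclease gene Isg20 (-1.89, unadjusted p 0.0467), all with an adjusted p of 1. Irf7 was at 16.9 ± 9.59 CPM in Control_1d and 50.6 ± 46.1 CPM in IRR_1d (SD, n = 3). The other genes among the 2 smallest p of each list were Usp18 (1.39), Eif2ak2 (0.68), Tlr13 (0.65), Lgmn (0.64), Myd88 (0.62), Unc93b1 (0.55) and Dnase1l3 (-2.44).

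The ligands of the interferon receptors were scarcely detected. Of 20 genes for interferons and their receptors 6 could be tested, all of them receptors, and none was a DEG, with Ifnar1 at a log2 fold change of 0.41 (adjusted p 0.655) and Il10rb at -0.33 (adjusted p 0.834) at 6 weeks. At 1 day Ifngr1 stood at -0.47 and Ifnar1 at -0.07. Ifnb1, the interferon beta gene that these sensors induce, is named after its values were seen. It was at 0 counts in 11 libraries and at 2, 36 and 20 counts in IRR_6w replicates 2, 3 and 4 (0.120, 2.29 and 0.949 CPM), of which replicates 3 and 4 are libraries with many low genes at 0 counts. The listed Ifna, Ifng and Ifnl genes were at 0 counts in every library, which is a statement on detection at this depth.

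**Figure D4:**
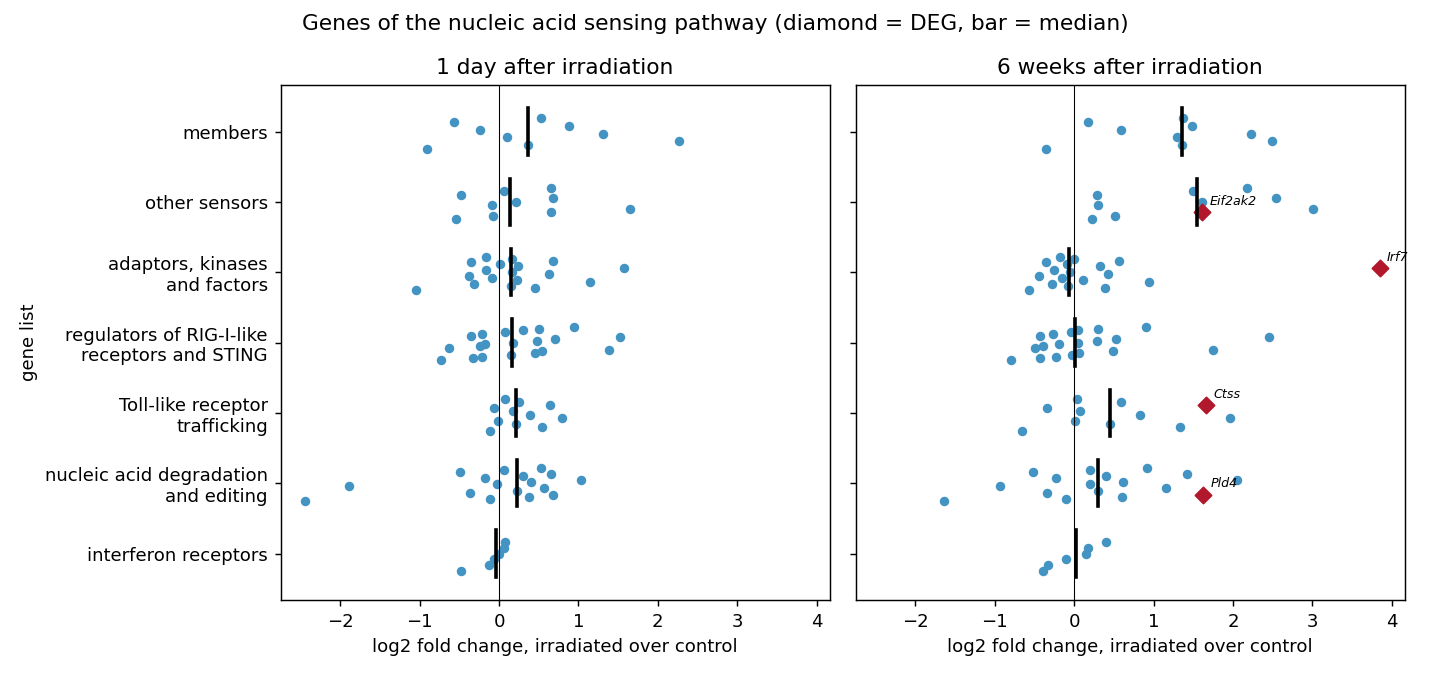
edgeR log2 fold change (x axis) of each tested gene of the members and of the 6 pathway lists (y axis) at 1 day (left panel) and 6 weeks (right panel), with a bar at the median of each list and red diamonds for DEGs. The 4 DEGs at 6 weeks are Irf7, Ctss, Pld4 and Eif2ak2, and the median of the members lies at 1.35 there and at 0.36 at 1 day.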

How the data were processed

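RNA of heart tissue was sequenced from 14 mice, with 3 per group at 1 day and 4 per group at 6 weeks. The authors checked reads with FastQC 0.11.8, trimmed them with Trim Galore 0.6.1, aligned them to mm10 with STAR 2.5.0a and deposited whole-number counts for 54532 genes, with a length for each gene. Per the labels each library is a separate heart. The counting mode and strandedness were not given in the sources used here. The members, lists and tests were chosen with earlier results of these data known.

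Counts entered edgeR 4.0.16, run in R 4.3.3 (filterByExpr, TMM, 4 groups, robust quasi-likelihood fit of all 14 libraries), with Benjamini-Hochberg adjustment over 16034 genes. DEGs had a fold above 2 or below 0.5 and an adjusted p under 0.05. DESeq2 1.42.0, limma 3.58.1, other scalings, no filter, the 2 groups alone, a replicate block and left-out libraries served as alternatives. FPKM was computed from TMM-scaled CPM and the deposited length. Correlations used 100000 permutations (two-sided). On simulated data with 200 genes changed by 2 on the log2 scale, 32% were called at 1 day, 50.5% at 6 weeks and 0% for the change in effect. Genes named are all members, up to 2 per list with the smallest p in each of the 1 day and 6 weeks comparisons, and the 5 most like each RIG-I-like receptor. Mb21d1, Ifnb1, Ccr2, Cd163 and Siglech were named after their values were seen. So were Ddx41, Nlrp1b, Tcf4, Cox6a2, Ccr9, Ly6d and Klk1. Positions are those of the deposited table, 98.2% of which match GENCODE vM21 (GRCm38).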

Additional observations from a re-analysis of the deposited data

Results flagged for a closer look

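In 18 groups of 4 libraries, the highest and lowest values of the 9 members were compared with the others of their group. Tbk1 in Control_6w replicate 3 stood out at 39.7 CPM, with the other 3 controls at 22.5 to 25.5 CPM by Dixon's test. This is the library with 4322 CPM of thymus and T cell markers. By chance about 1 in 20 groups would stand out in this way.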

How the results depend on the processing

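At 1 day the number of members called was 0 under every alternative run. At 6 weeks it was 0 with edgeR and 5 with DESeq2, 3 without the libraries with transcripts of other tissue, 6 at an unadjusted p with the 2-fold limit kept, and 0 to 1 when single libraries were left out, the 1 being Dhx58 without IRR_6w replicate 1. For the mean of both effects it was 2 with DESeq2 and 3 at an unadjusted p with the 2-fold limit, and for the change in effect 2 by the same rule. With a replicate block it was 0 in all 4 comparisons. No pairing of the hearts by replicate number was seen. Deviations from the group means correlated at -0.364 to 0.371 for same-numbered hearts and at -0.190 to 0.427 for differently numbered ones. So few pairs cannot show that there was none. Over all genes, the DEGs at 6 weeks numbered 44 with edgeR, 331 with DESeq2, 100 with library totals, 72 with no filter, 17 with limma-voom, 13 with the 2 groups alone, 6 with the replicate block, 202 without the libraries with other tissue and 0 without those with many low genes at 0 counts, a set chosen after seeing the data.

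Signs turned only in effects that edgeR estimated as smaller than their SE. Mavs at 1 day was -0.14 without the libraries with many low genes at 0 counts and -0.14 to 0.30 when single libraries were left out, and Tlr3 at 1 day was -0.0297 without the libraries with other tissue and -0.0267 to 0.675. Tbk1 at 6 weeks was -0.0631 and the mean effect of Tmem173 was 0.14 without the libraries with many low genes at 0 counts. With library totals the mean effects of Mavs and Tbk1 were 0.0581 and 0.0930, and that of Tbk1 was 0.11 without the libraries with other tissue and -0.0995 to 0.0696 when single libraries were left out. The change in effect of Zbp1 was 2.26 with limma-voom, 1.82 with the replicate block, 3.35 without the libraries with other tissue and -0.52 to 1.64 when single libraries were left out. The cause was not tested. Scaling by library totals moved the all-gene median up by 0.23 (log2) at 6 weeks and by 0.15 for the mean effect. Counts as low as 20 for Dhx58 and 0 for Zbp1 in a control library limit both.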
